A study of Mus musculus with 39 samples.

Results

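Transcript levels of 10 genes of lipolysis and the lipid droplet were followed in murine epididymal adipose tissue. The genes were Pnpla2, Lipe, Mgll, Abhd5, G0s2, Plin1, Plin4, Plin2, Cidec and Dgat2. They were chosen by name, for their roles, from 29411 gene names on the array, and their 16 probes were found among 40628. For each gene the probe with the highest mean level over all arrays, its brightest, was used, and the further probes of the 5 genes that had more than 1 served as a check. The probe of Plin2 carries the older name Adfp on the array and was matched through its accession.

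Fat cells keep triacylglycerol in 1 large droplet whose surface is covered by proteins that hold enzymes off or let them on. Lipolysis is stepwise: Pnpla2 (adipose triglyceride lipase) removes the first fatty acid, Lipe (hormone-sensitive lipase) the next, and Mgll (monoacylglycerol lipase) the last. Abhd5 (CGI-58) switches Pnpla2 on and is held by Plin1 (perilipin 1) until adrenergic signalling releases it, while G0s2 inhibits Pnpla2. Cidec lets small droplets fuse into large ones, Plin4 and Plin2 coat other droplet pools, and Dgat2 makes the triacylglycerol that fills the droplet.

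The study fed C57BL/6J mice, weaned and 3 to 4 weeks old at the start, 5 diets. LFC was the low fat control diet (10% of calories from fat, 11 arrays, at days 1, 6, 10 and 14 and weeks 0, 3, 6, 9, 12, 15 and 18), and HFC the high fat, high sucrose diet (60%, 10 arrays, from day 6 on). HF5, HF20 and HF75 were HFC with 5, 20 or 75 µg of KAL-1, a botanical formulation, with 6 arrays each at weeks 3 to 18. A group held 30 animals, of which 5 were killed every 3 weeks. The sources used here do not say whether an array holds RNA of 1 animal or of a pool. Weeks are counted from day 14, so week 0 and day 14 are the same nominal time, sampled separately. The series text speaks of 3 biological replicates, but the files used here hold 1 array for each combination of diet and time, and what that array stands for is not given. The time points of a diet thus stand in for replicates, and a p-value measures the spread between time points and animals together. Levels are log2 of the processed signal minus the array's own 75th percentile, so a level of 1 is 2-fold above that percentile. Levels of different probes cannot be set against each other.

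Several arrays stood apart. The LFC week 3 array had 16431 spots marked as outliers and the HFC week 12 array 10531, against 21 to 387 on the other 37 arrays, and LFC week 3 gave no value for Abhd5 and G0s2. The HF5 week 9 array was dim, with a 75th percentile of 119 intensity units against up to 1515. The week 6 arrays of LFC, HFC, HF5 and HF75 were low in mesothelium markers (list medians of −4.20, −4.19, −6.03 and −5.57, against −2.62 to 2.11 on all other arrays). Subcutaneous depot markers, often not above background, had their highest median of the diet at week 6 in HFC (−4.39), HF5 (−5.29) and HF75 (−3.52). In LFC the highest was at week 3, and in HF20 week 6 was the lowest (−8.97). Lymphoid medians were highest at week 6 in LFC (0.55), HFC (−0.62) and HF75 (0.27), but not in HF5 or HF20. Epididymis markers (5 genes) had list medians from −8.86 to 3.37 over the 39 arrays. None was well above background on all of them, with 14 arrays for Spint4 at the least and 31 for Crisp1 at the most. Adipocyte markers (Adipoq, Retn, Cfd, Lep, Pparg and Slc2a4) were all well above background on all 39 arrays, with list medians of 2.13 to 5.69.

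Many probes of these genes ran into the top of the scanner's range. A saturated spot gives a lower bound, and its level is then set by the array's 75th percentile. Of the 39 arrays, Mgll was saturated on 24, Cidec on 18, Plin4 on 16, Plin2 on 14, Dgat2 on 13, Plin1 on 10 and Pnpla2 on 6. Lipe, Abhd5 and G0s2 were saturated on none, and neither were the dimmer probe of Pnpla2 and 1 further probe of Dgat2. All of these were well above background on all 39 arrays but Abhd5, which was not on HF5 week 9. On 8 arrays at least 6 of the 10 genes were saturated at once. On the HF20 week 18 array, for example, Plin1, Plin4, Cidec and Dgat2 all read 5.88, which is that array's ceiling and not a shared level.

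The probes that never saturated carry most of what follows, and the first 30 of the 60 bases of each are shown, 5′ to 3′, as the array files list them.
Lipe (51_P435366): aactccttcctggaactaagtggacgcaag
Lipe (51_P435363): gaagaagctgacaataaaggacttgagcaa
Abhd5 (52_P273821): attgggcttcggaagaagtagtagacctaa
Abhd5 (51_P407165): tcgacctcacaaatcacgactcgatgactt
G0s2 (52_P681391): acagcccagagctcagatggaaagtgtgca
Pnpla2 (52_P681771): atccggtggatgaaagagcagacgggtagc
Dgat2 (52_P359739): acaatcacaagaccaaatttggccttccag
Where a gene had a pair of probes, they were read against each other on the 37 arrays without LFC week 3 and HFC week 12. Pearson's r between both probes was 0.96 for Lipe and 0.91 for Abhd5. For Mgll it was 0.66 with all 37 arrays and 0.88 on the 14 where neither probe was saturated. The Pnpla2 pair gave 0.74, and the brightest Dgat2 probe gave 0.91 and 0.87 with the others. These are descriptions across arrays that share slides and scan dates.

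Lipe and G0s2, whose levels moved together over the arrays, are shown with promoter windows from RefSeq, as are Abhd5 and Plin2. Lipe has 2 windows, of which the first is shown. A window runs from 250 bases before the transcript start to 50 after it, 300 bases on GRCm38.p6, in the direction of the gene. Windows were listed for 9 of the 10 genes (12 windows), and none was listed for Dgat2. Capitals mark the matches, on either strand, to 5 motifs: the nuclear receptor motif AGGTCA, the C/EBP palindrome TTGCGCAA, the sterol response element TCACNCCAC, the E-box CACGTG and the TATA box TATAAA.
Lipe, chr7:25395938-25396237, minus strand: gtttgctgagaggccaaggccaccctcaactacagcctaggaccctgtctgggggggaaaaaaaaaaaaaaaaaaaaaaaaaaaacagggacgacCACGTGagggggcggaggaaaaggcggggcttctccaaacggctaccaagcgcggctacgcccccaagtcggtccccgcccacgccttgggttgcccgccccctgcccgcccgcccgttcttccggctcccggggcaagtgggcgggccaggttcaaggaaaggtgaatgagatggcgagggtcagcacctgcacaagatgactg
G0s2, chr1:193273139-193273438, minus strand: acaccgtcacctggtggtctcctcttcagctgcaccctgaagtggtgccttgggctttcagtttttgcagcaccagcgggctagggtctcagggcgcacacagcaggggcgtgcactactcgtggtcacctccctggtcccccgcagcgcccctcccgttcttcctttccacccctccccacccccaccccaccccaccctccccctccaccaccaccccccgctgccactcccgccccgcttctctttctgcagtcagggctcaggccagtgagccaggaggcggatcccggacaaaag
Abhd5, chr9:122351366-122351665, plus strand: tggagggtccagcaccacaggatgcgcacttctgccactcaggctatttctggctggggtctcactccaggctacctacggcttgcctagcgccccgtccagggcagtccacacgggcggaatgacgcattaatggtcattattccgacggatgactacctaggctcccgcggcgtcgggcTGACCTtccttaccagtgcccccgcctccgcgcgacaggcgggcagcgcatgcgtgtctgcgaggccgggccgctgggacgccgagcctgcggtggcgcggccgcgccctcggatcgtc
Plin2, chr4:86670010-86670309, minus strand: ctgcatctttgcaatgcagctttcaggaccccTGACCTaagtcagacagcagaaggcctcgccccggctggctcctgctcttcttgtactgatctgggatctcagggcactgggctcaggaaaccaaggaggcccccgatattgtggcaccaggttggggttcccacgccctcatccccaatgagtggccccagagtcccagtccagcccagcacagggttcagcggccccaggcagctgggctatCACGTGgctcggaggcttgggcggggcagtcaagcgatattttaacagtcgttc
The first Lipe window held an E-box starting 155 bases before the transcript start, and the second (chr7:25390063-25390362) held none of the 5 motifs. The Plin2 window held an E-box starting 4 bases before the start. AGGTCA on the opposite strand (TGACCT) lay 69 bases before the start of Abhd5 and 218 before that of Plin2, and the G0s2 window held none of the 5 motifs. Over the 12 windows of the 9 genes, 3 held the E-box (Mgll was the other gene) and 2 the nuclear receptor motif. Of all 32851 windows in the table, 7.15% held the E-box, 16.3% the nuclear receptor motif, 13.6% the TATA box, 1.24% the sterol response element and 0.183% the C/EBP palindrome. No window of these genes held any of the last 3. A match is only a match of letters.

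Lipolysis begins with Pnpla2. Its brightest probe lay between 2.96 (LFC day 14) and 6.11 (HF5 week 18), with a median of 4.73. The dimmer, never saturated probe ran wider, from −0.06 on LFC week 3, or 0.27 without LFC week 3 and HFC week 12, to 5.51 on HF20 week 18. On the brightest probe the lowest, median and highest levels were 2.96, 4.46 and 5.84 in LFC, 3.64, 4.61 and 6.05 in HFC, 3.04, 4.69 and 6.11 in HF5, 3.45, 5.54 and 5.86 in HF20, and 4.58, 5.48 and 5.96 in HF75. All 5 ranges overlapped.

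Lipe varied over 4.63 log2 units without a saturated spot. In LFC it was 3.38 and 3.66 at days 1 and 6, then 0.59, 0.06 and 0.52 at days 10 and 14 and week 0. The late LFC arrays (weeks 3 to 18) had a lowest level of −0.59 at week 15, a median of 0.53 and a highest of 2.85 at week 12. In HFC it stayed at 2.89, 2.90 and 3.78 through days 6, 10 and 14, and read 0.94 at week 0. So at days 10 and 14 the HFC arrays were far above the LFC arrays, and at day 6 they were below. The late HFC arrays ran from −0.01 at week 6 over a median of 0.46 to 3.06 at week 3. Among the KAL-1 diets the lowest, median and highest levels were −0.36, 0.83 and 2.75 in HF5, 0.22, 2.77 and 3.99 in HF20, and −0.64, 1.16 and 3.07 in HF75. In HF20 the levels at weeks 3, 6, 12 and 18 were 2.18, 3.78, 3.36 and 3.99, while weeks 9 and 15 gave 0.71 and 0.22. At week 15 every diet was low, between −0.64 and 0.22.

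Mgll, the last lipase of the chain, ranged over only 2.44 log2 units, from 5.29 (LFC week 6) to 7.73 (the dim HF5 week 9 array). With 24 of 39 spots saturated this narrow range is a property of the probe as much as of the transcript. All 4 early HFC arrays were saturated, at 5.96, 5.77, 5.92 and 5.72, so Mgll had only a lower bound there. Its other probe, saturated on 6 arrays, ran from 3.53 on LFC week 3 to 6.97, and from 4.89 on the other 37 arrays.

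**Figure D1:**
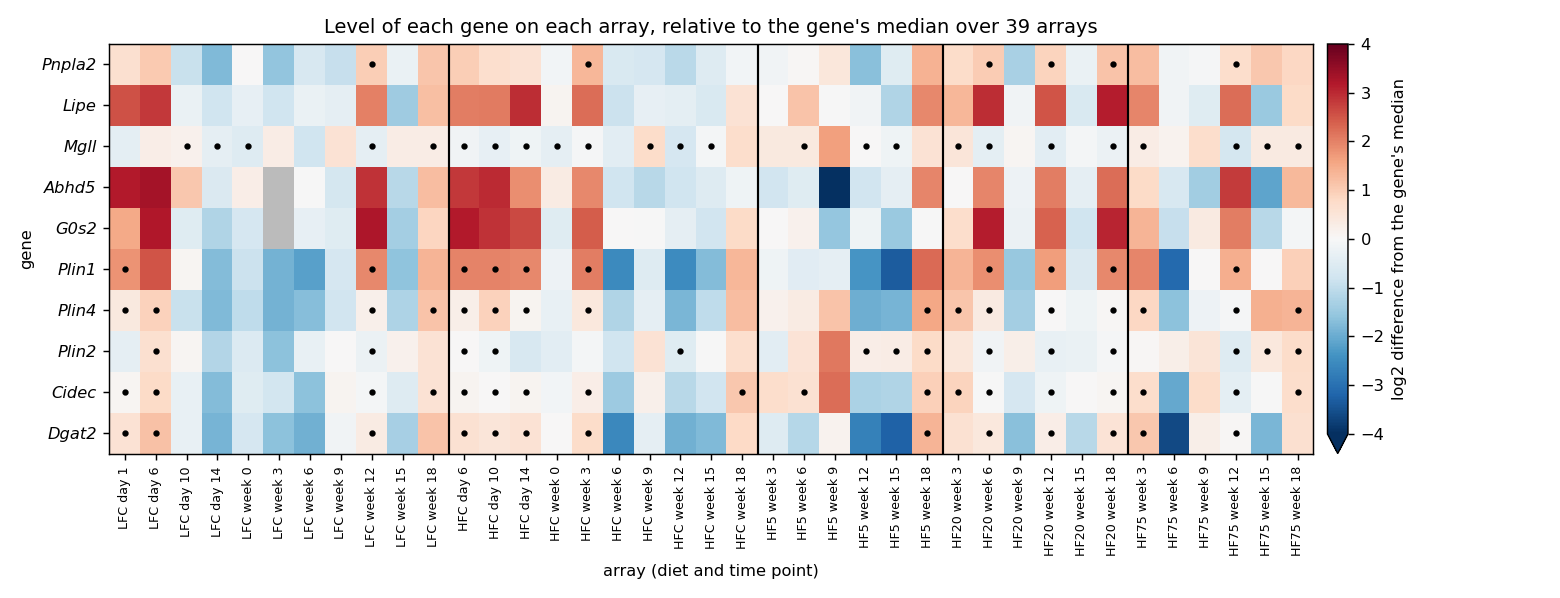
Level of each of the 10 genes (rows) on each of the 39 arrays (columns, by diet and time point), as the log2 difference from the gene's own median, with black dots on saturated spots and grey where no value was left. Columns that are red or blue in most rows stand out in every diet, and Mgll and Plin2 stay pale, with 24 and 14 saturated spots.

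The co-activator Abhd5 and the inhibitor G0s2 act on Pnpla2 in opposite directions. Abhd5 was 2.09, 2.25, 0.02, −1.66 and −0.81 on the early LFC arrays and 1.74, 1.90, 0.77 and −0.75 on the early HFC arrays, in the order of time. The late medians were −1.10 in LFC (5 arrays), −1.73 in HFC, −1.70 in HF5, −0.09 in HF20 and −1.004 in HF75. Its lowest level, −6.03, was on the dim HF5 week 9 array, where it was not well above background, and where the other Abhd5 probe read −2.28, also its lowest. The highest Abhd5 level of the late HFC arrays was 0.86 at week 3, and the other late HFC arrays lay between −2.19 and −1.25.

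G0s2 ran from −0.20 (HF5 week 9) to 4.601 (LFC week 12). On the early LFC arrays it was 2.87, 4.57, 0.87, 0.17 and 0.69, and on the early HFC arrays 4.52, 4.24, 4.00 and 0.88. HF5 stayed between −0.20 and 1.53 at all 6 weeks, with a median of 1.27. HF20 ran from 0.57 over a median of 2.89 to 4.50, and HF75 from 0.23 over 1.503 to 3.42. The ranges of HF5 and HF20 overlapped: HF20 was at 1.11 at week 9 and 0.57 at week 15.

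**Figure D2:**
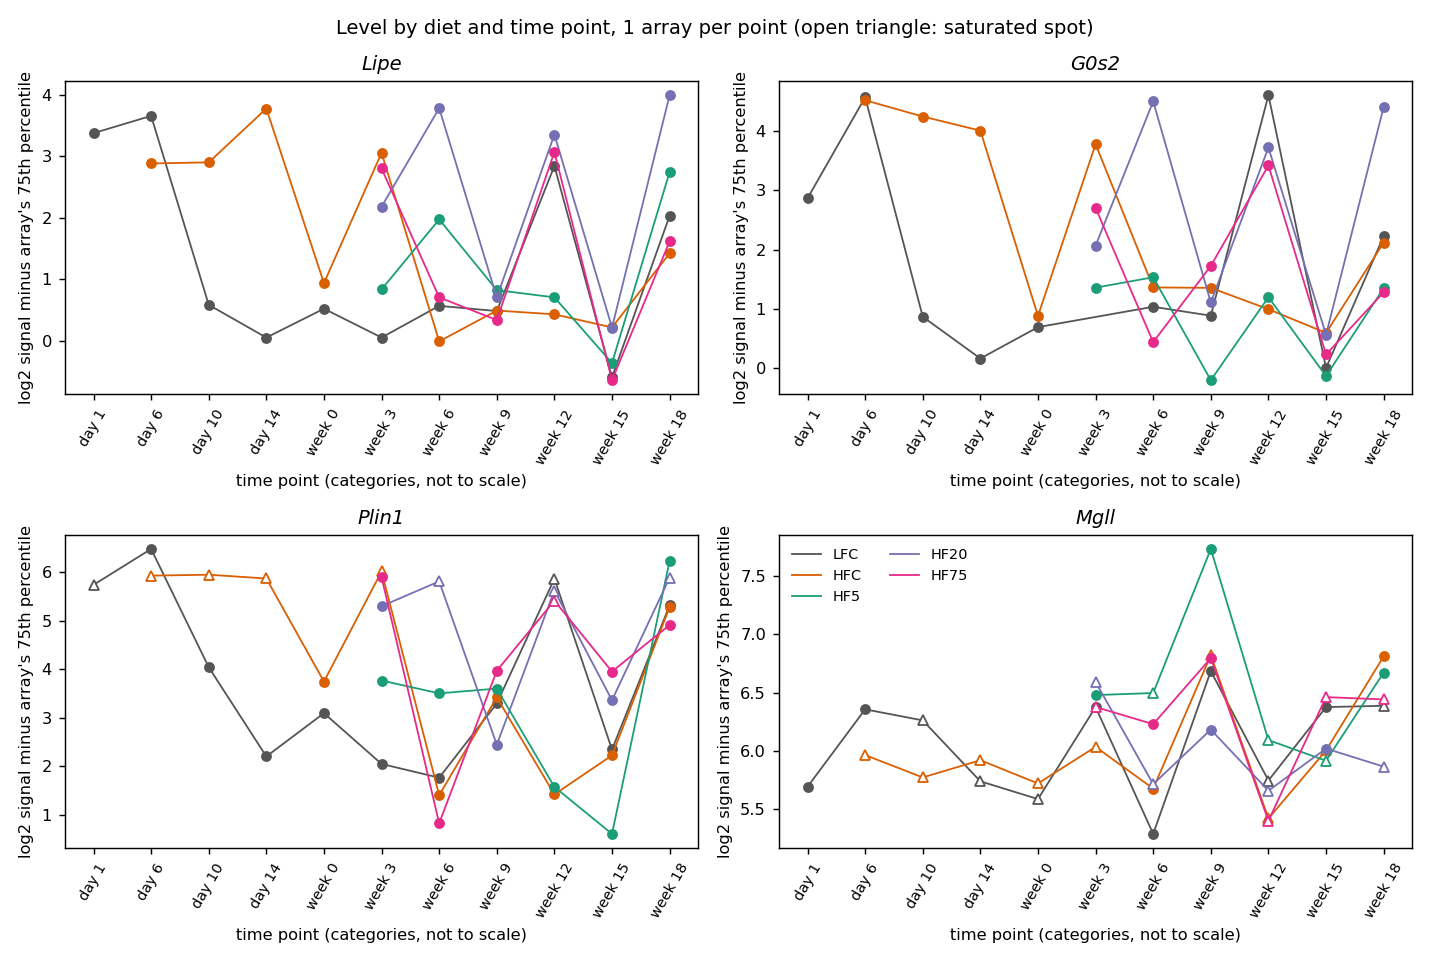
Levels of Lipe, G0s2, Plin1 and Mgll (y axis, log2 signal minus the array's 75th percentile) at each time point (x axis, as categories) for the 5 diets, 1 array per point, with open triangles for saturated spots. Lipe and G0s2 were low in every diet at week 15, while at week 12 LFC, HF20 and HF75 were high and HFC and HF5 low.

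Plin1, the main coat protein of the fat cell droplet, ran from 0.61 (HF5 week 15) to 6.47 (LFC day 6). Its lowest, median and highest levels were 1.77, 3.29 and 6.47 in LFC, 1.41, 4.51 and 6.01 in HFC, 0.61, 3.55 and 6.23 in HF5, 2.45, 5.46 and 5.88 in HF20, and 0.83, 4.44 and 5.89 in HF75. On the early HFC arrays it was 5.92, 5.94, 5.87 and 3.75, of which the first 3 were saturated. At week 12 Plin1 was 5.86 in LFC, 5.62 in HF20 and 5.41 in HF75 (all saturated) and 1.42 in HFC and 1.58 in HF5. At week 6 it was 5.81 in HF20, which was saturated, against 0.83 to 3.50 in the other 4 diets. The week 6 arrays of those 4 diets were the ones low in mesothelium markers. At week 18 all 5 diets were high, from 4.91 to 6.23.

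Plin4 ran from 3.88 (HF5 week 12) to 7.38 (HF5 week 18), and its late medians were 4.83 in LFC, 5.16 in HFC, 6.09 in HF5, 5.86 in HF20 and 6.22 in HF75. Plin2, which coats droplets in most cell types, ran from 4.26 (LFC week 3) to 8.0 (the dim HF5 week 9 array). Without LFC week 3 and HFC week 12 it ran from 4.72. Its late medians were 5.79 in LFC, 5.86 in HFC, 6.32 in HF5, 5.81 in HF20 and 6.23 in HF75. The fusion factor Cidec ran from 3.78 (HF75 week 6) to 8.05 (the dim HF5 week 9 array). Its late medians were 5.51, 5.53, 6.47, 5.81 and 6.15 in LFC, HFC, HF5, HF20 and HF75. Between 1 and 4 of the 6 late arrays of each diet were saturated for these 3 genes, so their upper levels are bounds.

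Dgat2, the enzyme of the last step of triacylglycerol synthesis, ran from 1.74 (HF75 week 6) to 6.71 (HF5 week 18) on its brightest probe. The probe that never saturated spanned 7.96 log2 units, from −3.20 (HF5 week 15) to 4.76 (HF20 week 6). The lowest, median and highest levels of the brightest probe were 3.42, 5.04 and 6.52 in LFC, 2.74, 5.58 and 6.12 in HFC, 2.12, 4.51 and 6.71 in HF5, 3.67, 5.68 and 5.94 in HF20, and 1.74, 5.47 and 6.41 in HF75.

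Within an array, most of these genes were high or low together. Over the 37 arrays without LFC week 3 and HFC week 12, 45 pairs of genes were compared, along with 20 relations to the adipocyte markers and to array brightness, and p-values were adjusted over all 65. Between the genes themselves r was highest for Plin1 with Dgat2 (Pearson's r = 0.93, Spearman's rho = 0.89). Lipe with G0s2 gave r = 0.90 and rho = 0.84, Plin4 with Cidec r = 0.85 and rho = 0.81, and Lipe with Plin1 r = 0.85 and rho = 0.82. The permutation p of each of these was 1e-05, the smallest that 100000 permutations can give, and the adjusted p was 2.41e-05 for r and 2.71e-05 for rho. The permutations shuffled levels freely over the arrays, as if these were independent. Since arrays share diets, weeks, slides and scan dates, all p-values of these relations can overstate the evidence. Lipe and G0s2, both free of saturation, kept r = 0.89 without the 2 arrays whose Lipe level lay farthest from its median. Within diets their r was 0.94 in LFC, 0.93 in HFC, 0.66 in HF5, 0.99 in HF20 and 0.88 in HF75. Within weeks 3 to 18, after subtracting each week's mean, which also removes most scan dates, it was 0.80. For Plin1 with Dgat2 the within-week r was 0.92, and r was 0.93 on the 24 arrays where neither was saturated. In all, 32 of the 45 pairs had an adjusted p for r under 0.05, and 7 pairs had r below 0. The share of pairs of other genes that would pass on the same arrays was not computed. Whether these genes moved together more than other genes do was thus not tested.

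Mgll and Plin2 stood apart from the others and near each other (r = 0.83, rho = 0.80, within weeks 0.81, and 0.85 on the 12 arrays where neither was saturated). Those 12 include the dim HF5 week 9 array, which held the highest level of both genes. Mgll gave r = 0.03 with Plin1 and −0.57 with Abhd5 (−0.46 without the 2 arrays farthest from the median of Mgll). Both levels contain the array's 75th percentile, and against its log2 intensity r was −0.81 for Mgll, −0.68 for Plin2, 0.72 for Abhd5, 0.48 for G0s2 and 0.42 for Lipe, while Plin1 (0.25), Pnpla2 (0.17) and Dgat2 (0.05) gave values near 0. The part of array brightness in the relations of Mgll, Plin2 and Abhd5 was not tested.

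The median of the 6 adipocyte markers moved with the same genes. Its r was 0.95 with Plin1 (rho = 0.92, within weeks 0.90), 0.88 with Lipe, 0.86 with Dgat2, 0.83 with Pnpla2, 0.82 with G0s2, 0.73 with Plin4, 0.70 with Abhd5 and 0.58 with Cidec, and −0.03 with Mgll and 0.09 with Plin2. Of the markers themselves, Cfd was saturated on 27 of the 39 arrays, Adipoq on 16, Retn on 4 and Slc2a4 on 1. Taken singly, r with Plin1 was 0.95 for Retn, 0.91 for Adipoq, 0.88 for Slc2a4, 0.76 for Lep, 0.66 for Pparg and 0.005 for Cfd. In whole tissue, fewer fat cells and less of a transcript per fat cell cannot be told apart. Lymphoid list medians ran from −4.70 (LFC day 1) to 0.55 (LFC week 6). On the 3 arrays with the lowest Plin1 they were −1.59 (HF5 week 15), 0.27 (HF75 week 6) and −0.62 (HFC week 6), and on HF5 week 12, where Plin1 read 1.58, it was −3.65. The part of other cells in the levels was not tested.

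**Figure D3:**
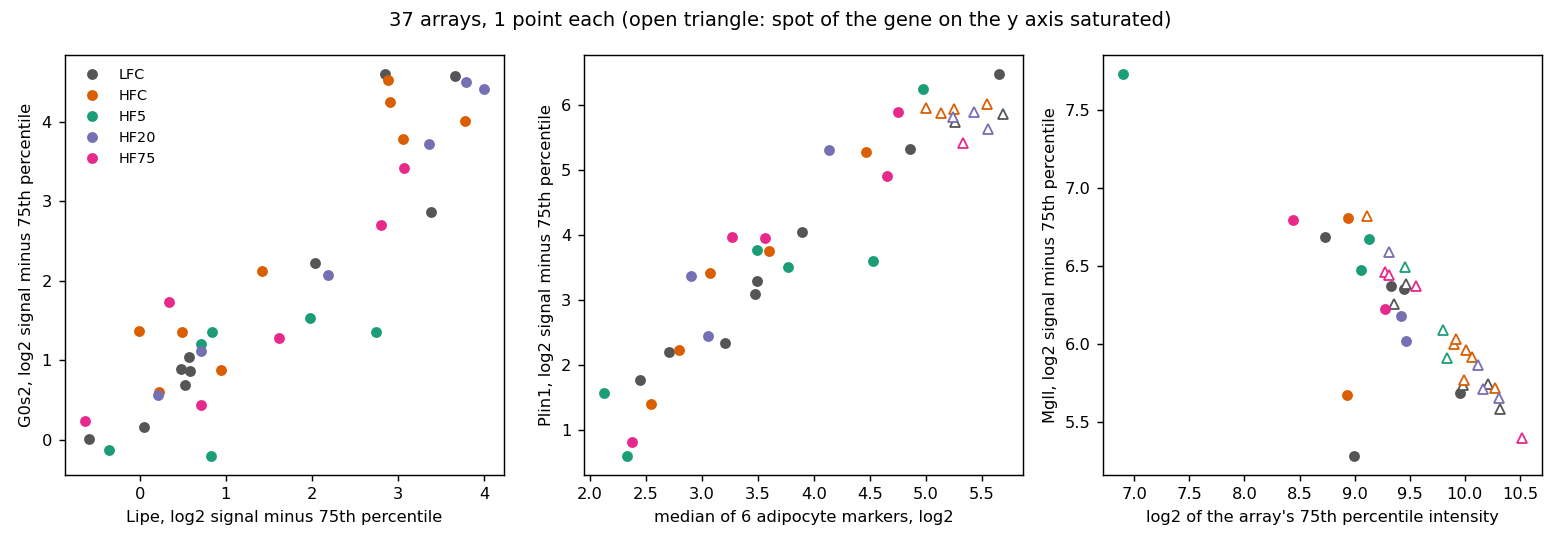
Left, G0s2 against Lipe; centre, Plin1 against the median of 6 adipocyte markers; right, Mgll against log2 of the array's 75th percentile intensity, over 37 arrays coloured by diet, with open triangles where the gene on the y axis was saturated. Pearson's r is 0.90, 0.95 and −0.81, and the saturated Mgll spots follow the falling ceiling. Saturated spots of the adipocyte markers are not marked.

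For each gene the most alike genes outside the set were taken from 14187 gene names measured well above background on the same 37 arrays. For Plin1 they were Adrb3, the adrenergic receptor that starts lipolysis in fat cells (r = 0.98), and Pcx, pyruvate carboxylase (0.96). For Lipe they were Srebf1, a lipogenic transcription factor, and Serpina3c (both 0.96). Abhd5 was most like Sdhb (0.97) and Ndufa10 (0.96), which encode subunits of the respiratory chain, and G0s2 most like Bscl2 (seipin) and Agpat2 (both 0.92), needed for droplet formation and triacylglycerol synthesis. For Dgat2 they were Adipoq (0.94) and Adrb3 (0.92), for Plin4 Pck1 (0.92) and Adipoq (0.87), and for Pnpla2 Prkar2b (0.87). Cidec was most like Car3 (0.89) and Ndufs5 (0.82). For Mgll they were Sdpr (0.95) and Gm6341 (0.87), and for Plin2 Gm8566 and Ehd1 (both 0.81). Of these genes Sdpr was saturated on 30 arrays, Car3 on 22, Gm6341 on 18, Adipoq and Pck1 on 16 each, Gm8566 on 12, Ndufs5 on 11, Prkar2b on 9, Adrb3 and Pcx on 6 each and Srebf1 on 4. Serpina3c, Sdhb, Ndufa10, Bscl2, Agpat2 and Ehd1 were saturated on none. These are descriptions over 37 arrays, and most arrays of a week share a scan date.

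The first comparison asked whether the high fat, high sucrose diet shifted these genes. Over the 10 time points that HFC and LFC share, 0 of the 10 genes passed an adjusted p of 0.05 in limma, and 0 had an unadjusted p under 0.05. Among all 29700 probes tested 0.0% and 3.05% did. By value 8 of the 10 were higher in HFC, with a median difference of 0.29 against 0.03 over all probes. Lipe was 0.59 ± 0.53 (SE) higher, with a 95% interval of −0.57 to 1.75, and higher at 6 of 10 time points. G0s2 was 0.56 ± 0.62 higher (6 of 9 time points), Plin4 0.52 ± 0.38 (8 of 10), Plin1 0.48 ± 0.66 (5 of 10) and Pnpla2 0.34 ± 0.44 (5 of 10). Abhd5 was 0.20 ± 0.53 lower by value, with a paired difference of −3.69 at week 12. Under the alternatives it ran from −0.53 to 0.23, so its direction depended on the setting. The adjusted p of every gene was 0.998. The paired differences of Plin1 ran from −4.44 at week 12 to 3.96 at week 3. Leaving out LFC week 3 and HFC week 12, 9 of 10 genes were higher by value and 0 passed, and with pairs of the same scan date (all but week 3) 6 were higher and the median difference was 0.07. That setting leaves out week 3, whose LFC array is one of the pair that stood apart.

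The KAL-1 diets were compared with HFC at the 6 weeks they share. For HF5, 0 of 10 genes passed, and 0 were under an unadjusted p of 0.05, against 0.0% and 3.44% of 32088 probes. Plin2 read 0.61 ± 0.30 higher (interval −0.02 to 1.24) and Mgll 0.44 ± 0.23 higher (−0.05 to 0.92), both with an adjusted p of 0.955 in limma. Each was saturated on 3 of the 6 HF5 arrays, and Mgll also on 4 of the 6 HFC arrays, so these values compare bounds in part. The dim HF5 week 9 array gave the largest paired difference of both, and without week 9 they were 0.42 and 0.34. G0s2 was 0.85 ± 0.58 lower by value, with an interval of −2.06 to 0.36. By value 6 genes were higher and 4 lower, and quantile scaling turned this into 5 and 5. Array weights, and leaving out week 18, turned it into 4 and 6.

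In HF20, 9 of the 10 genes were higher than in HFC by value, with a median difference of 0.67, against −0.07 over all probes. None passed the adjusted p, and Lipe was the 1 gene with an unadjusted p under 0.05, against 0.0% and 5.05% of all probes. Lipe was 1.44 ± 0.55 higher, a 2.71-fold level with an interval of 1.23 to 5.97, with an adjusted p of 0.772 in limma, and it was higher at 4 of 6 weeks. Its other probe gave 1.58 ± 0.55. Plin1 was 1.44 ± 0.83 higher (interval −0.27 to 3.15), Abhd5 1.19 ± 0.69 (−0.25 to 2.62) and G0s2 1.03 ± 0.58 (−0.18 to 2.24). The never saturated probe of Pnpla2 gave 1.60 ± 0.67 and that of Dgat2 1.92 ± 1.01, against 0.65 ± 0.49 and 0.70 ± 0.62 on the brightest, partly saturated probes. Mgll was 0.12 ± 0.23 lower and Plin2 differed by 0.00 ± 0.30. The HF20 differences came from some weeks: for Lipe the largest were 3.79 at week 6 and 2.92 at week 12, and at week 3 it was −0.88. Both of the largest were read against HFC arrays that stood apart. HFC week 6 had a mesothelium list median of −4.19, and HFC week 12 had 10531 outlier spots. The week 6 arrays of HF20 and HF75 were also scanned on another date than those of LFC, HFC and HF5. The next largest Lipe difference was 2.57 at week 18. Without LFC week 3 and HFC week 12, 934 of 32088 probes had an unadjusted p under 0.05, instead of 1619. Without the week 6 arrays 8 of 10 genes were higher by value, the median difference was 0.35 and none had an unadjusted p under 0.05. Without week 12, or without week 18, none had either. Without week 3 the picture went the other way: Lipe (1.90 ± 0.53), Abhd5 (1.81 ± 0.74), Plin1 (1.87 ± 0.87) and G0s2 (1.57 ± 0.61) had an unadjusted p under 0.05, as did 7329 of 32088 probes in place of 1619, and 0 genes passed (adjusted p of Lipe 0.139 in limma). With saturated spots left out the median difference was 0.22, with 7 of 10 higher. The 6 adipocyte markers had a median difference of 0.73, with 5 of 6 higher by value. Markers of other tissues differed too by value. Higher were 5 of 5 epididymis genes (median 1.4), none of them well above background on every array. So were 4 of 4 of mesothelium (0.54), 5 of 6 of macrophages (0.48) and 4 of 5 lymphoid (0.12). Against these stood 2 of 5 of skeletal muscle (−0.25), 1 of 3 tested of brown fat (−0.33) and 0 of 2 tested of the subcutaneous depot (−1.60). No marker passed an adjusted p of 0.05. The part of these markers in the differences was not tested.

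In HF75, 0 of 10 genes passed and 0 were under an unadjusted p of 0.05, against 0.0% and 1.54% of all probes. By value 9 genes were higher, with Pnpla2 0.89 ± 0.49 higher (interval −0.12 to 1.90), Plin1 0.87 ± 0.83, Plin4 0.73 ± 0.58 and Lipe 0.38 ± 0.55. At week 12, whose HFC array had 10531 outlier spots, the paired differences were 3.98 for Plin1, 3.58 for Abhd5, 2.64 for Lipe and 2.42 for G0s2. At the other weeks they ran from −0.58 to 1.72 for Plin1 and from −0.86 to 0.71 for Lipe. Pnpla2 differed by 1.78 at week 12 and 1.59 at week 15, and Plin4 by 1.78 and 2.42. The never saturated probe of Pnpla2 did not show the week 15 difference, with 1.71 in HF75 and 1.84 in HFC. At week 12 it read 4.46 and 1.28. By value this probe was higher in HF75 at weeks 6, 12 and 18 and lower at weeks 3, 9 and 15. The 3 doses share the HFC arrays. For Lipe the differences from HFC were thus 0.19 at 5 µg, 1.44 at 20 µg and 0.38 at 75 µg, and for G0s2 −0.85, 1.03 and −0.07. Differences between doses were not tested.

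**Figure D4:**
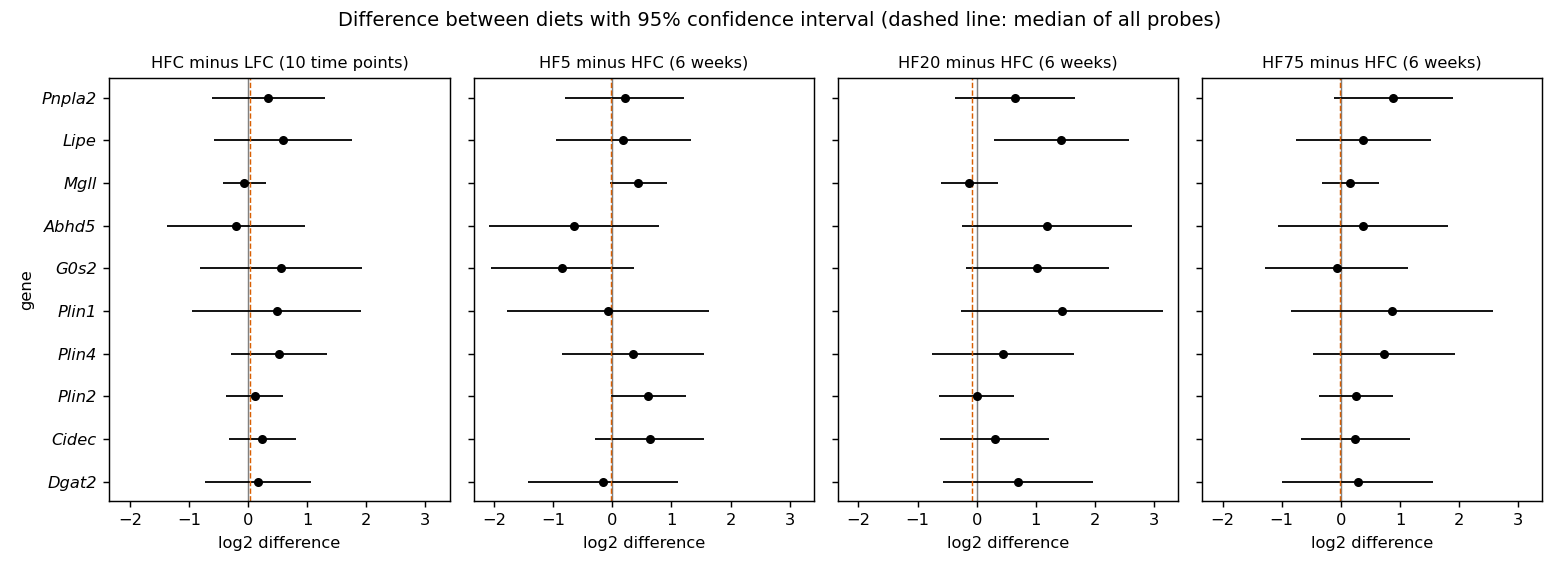
Log2 difference between diets for each gene (points) with its 95% confidence interval (bars), for HFC minus LFC and for HF5, HF20 and HF75 minus HFC, with the median of all probes as a dashed line. The interval of Lipe in HF20, 0.29 to 2.58, is the one that does not reach 0.

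The last comparisons set the late arrays (weeks 3 to 18) against the early ones (days 1 to 14 and week 0). The arrays of days 1 to 14 went through the scanner after those of weeks 0 to 18, so time and scan period run together except at week 0. In LFC, 0 of 10 genes passed and 0 had an unadjusted p under 0.05, against 0.468% and 5.49% of 30961 probes. Lipe was 1.64 ± 1.73 (SD, n = 5) early and 0.90 ± 1.29 (n = 6) late, and Plin1 4.31 ± 1.78 and 3.44 ± 1.75. The differences were −0.74 ± 0.81 (SE) for Lipe, −0.87 ± 0.94 for Plin1 and −0.996 ± 0.93 for Abhd5. G0s2 differed by −0.08 ± 0.99. By value 8 of the 10 genes were lower late, but 4 were without day 6 and 3 with array weights.

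In HFC the same genes were lower late by value. Abhd5 was 0.92 ± 1.22 (SD, n = 4) early and −1.32 ± 1.11 (n = 6) late, a difference of −2.24 ± 0.67 (SE, interval −3.71 to −0.77) with an adjusted p of 0.229 in limma. Its other probe gave −1.39 ± 0.44. Plin1 went from 5.37 ± 1.08 to 3.29 ± 1.98 (difference −2.08 ± 0.96), G0s2 from 3.41 ± 1.70 to 1.70 ± 1.13 (−1.71 ± 0.79), Lipe from 2.63 ± 1.199 to 0.94 ± 1.15 (−1.69 ± 0.68), and Dgat2 from 5.75 ± 0.28 to 4.48 ± 1.44 (−1.26 ± 0.67). Of the 4 early arrays, 3 were saturated for Plin1 and 3 for Dgat2, so their early means are bounds. The Dgat2 probe that never saturated went from 2.77 ± 1.45 to 0.43 ± 2.42 (−2.33 ± 1.19). Early and late arrays overlapped for each of these 5 genes, since HFC week 3 was high among the late arrays for each of them and week 0 low among the early ones. None passed the adjusted p. Abhd5 and Lipe, 2 of 10, had an unadjusted p under 0.05, against 0.0% and 16.6% of 31138 probes, so the share of the genes was near that of all probes. Mgll and Plin2 were 0.28 ± 0.32 and 0.28 ± 0.33 higher by value, the former with its 4 early arrays saturated. Array weights were also tried, estimated from the same early and late split, so that arrays far from the mean of their period count less. Such weights depend on the split that is tested and are not a separate measure of array quality. With them 5 genes were called lower late, at adjusted p from 0.0115 to 0.0238 in limma. They were Abhd5 (−2.93 ± 0.47), Plin1 (−2.89 ± 0.76), G0s2 (−2.71 ± 0.58), Lipe (−2.30 ± 0.48) and Pnpla2 (−1.15 ± 0.31). Under that weighting 25.4% of all probes were called, 12.7% as lower late. With week 0 as the only early array, 0 genes passed and the difference of G0s2 turned to 0.82 ± 1.05. Markers moved too: the adipocyte list median was 5.25, 5.00, 5.14 and 3.60 on the early HFC arrays and 2.52 to 5.55 on the late ones, and 5 of its 6 genes were lower late by value. So were 4 of 6 macrophage genes (median −0.70), 4 of 4 of mesothelium (−1.30), 5 of 5 of the epididymis (−0.82) and 2 of 3 tested of brown fat (−0.12), while 5 of 5 skeletal muscle genes (0.89), 5 of 5 lymphoid genes (0.43) and 2 of 2 tested of the subcutaneous depot (1.55) were higher by value. No marker passed an adjusted p of 0.05. The part of these markers in the differences was not tested.

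**Figure D5:**
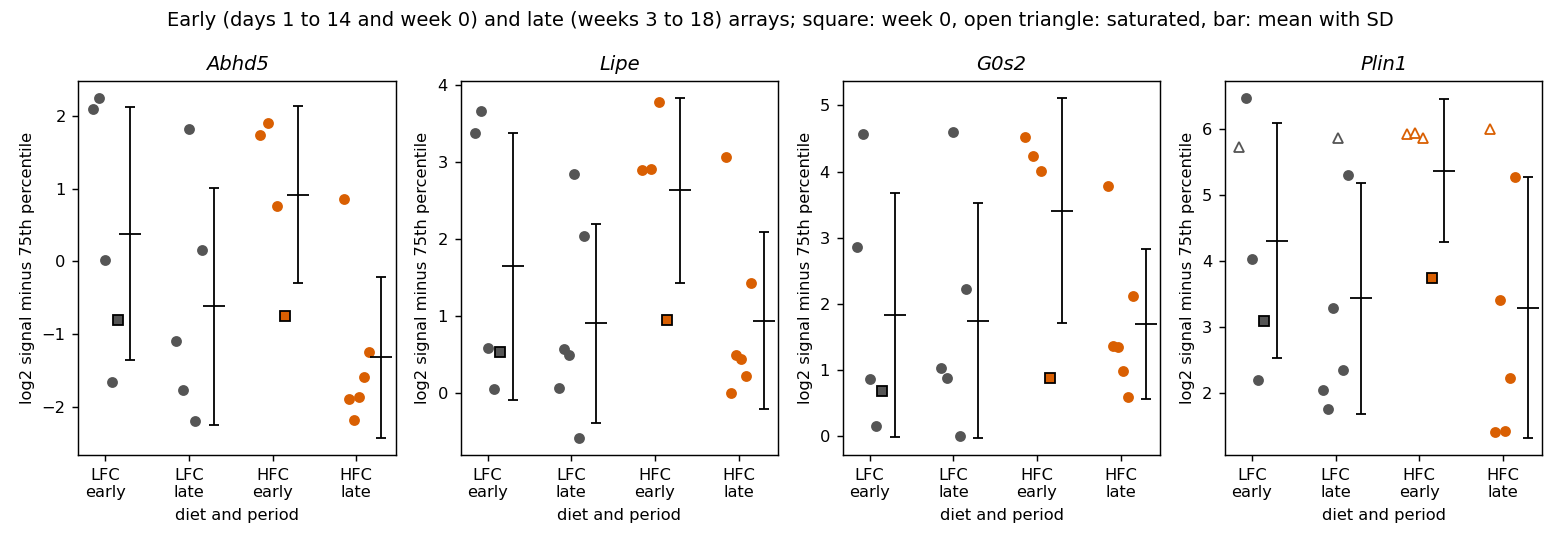
Levels of Abhd5, Lipe, G0s2 and Plin1 (y axis, log2 signal minus the array's 75th percentile) on early and late arrays of LFC and HFC, with week 0 as squares, saturated spots as open triangles, and mean and SD as bars. On HFC the week 0 squares lie below the other 3 early arrays for all 4 genes, and for G0s2 and Plin1 the gap is over 2 log2 units.

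Whether late minus early differed between the diets was tested on the paired HFC minus LFC values, late against early. None of the 10 genes passed, and Abhd5 alone had an unadjusted p under 0.05, against 0.0% and 5.26% of 29700 probes. Its difference was −2.11 ± 0.90 (interval −4.10 to −0.11, adjusted p 0.833 in limma), that of G0s2 −2.30 ± 1.096 and that of Plin1 −1.56 ± 1.32. The other Abhd5 probe gave −0.96 ± 0.77, and the other Lipe probe −2.49 ± 1.03 against −1.38 ± 1.06 on the brightest. By value 8 of 10 genes were below 0, with a median of −1.04, against 0.15 over all probes.

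The wider pathway was read from lists of 18 genes of lipolysis control (receptors, protein kinase A, fatty acid carriers), 15 of droplet structure and 12 of triacylglycerol synthesis. No gene of the 3 lists passed an adjusted p of 0.05 in any of the 7 comparisons. For HFC against LFC, 14 of 18, 9 of 13 tested and 9 of 12 were higher by value, with medians of 0.22, 0.22 and 0.29. For HF20 against HFC the triacylglycerol synthesis list had a median difference of 1.1, with 11 of 12 higher by value and 0 under an unadjusted p of 0.05. For HFC late against early it had −1.35, with 4 of 12 (Agpat2, Acsl1, Gpd1 and Dgat1) under an unadjusted p of 0.05 and lower by value, against the 16.6% of all probes given above. In that comparison 13 of 18 lipolysis control genes were lower by value, 4 of these with an unadjusted p under 0.05 (Gnas, Adora1, Fabp5 and Prkar2b). Of 14 droplet structure genes tested 9 were higher by value, 1 with an unadjusted p under 0.05, Hilpda, an inhibitor of Pnpla2 (2.28 ± 0.73, adjusted p 0.231 in limma). Ffar2, a receptor for short fatty acids that restrains lipolysis, was 1.21 ± 0.31 higher in HFC than in LFC, with an adjusted p of 0.998. Genes named here by their unadjusted p were chosen after their values were seen. Fabp4 and Cavin1 were saturated on all 39 arrays and have no usable level, and Adrb3, never below −0.54, had its lowest value on HF75 week 6, as Dgat2 did.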

How the data were processed

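Scanner files of 39 one-colour arrays (45220 spots, 43803 of them not controls) were used, 1 array per diet and time point, on 32 slides scanned on 13 dates. Per the file headers, the authors' deposited intensity values are processed signals from Agilent Feature Extraction 10.5.1.1, corrected for background and spatial trend array by array and not normalised between arrays (the submitters' processing notes name version 9.1). A table of the whole series deposited by the authors holds log2 differences from LFC of the same time point after GeneSpring GX, that is, their own comparisons, and was not used. Here log2 of the processed signal minus the array's 75th percentile over non-control spots was taken, outlier spots were set to missing, saturated spots were kept, and spots of a probe were averaged.

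The filter asked for a signal well above background on 10 or more of 20 arrays (HFC against LFC, and the change of that difference), 6 of 30 (KAL-1 diets, fitted with all 5 diets), 5 of 11 (LFC) or 4 of 10 (HFC). Limma 3.58.1 in R 4.3.3 was fitted across all probes, two-sided, with time point as a block between diets, Benjamini-Hochberg adjustment over all probes tested and a threshold of 0.05. The fit was tested on simulated data. Relations across arrays used 100000 permutations, two-sided, shuffled freely and not within diets, weeks or scan dates. Results were compiled with version 1.17.8 of the data.table package, Python 3.11.15, numpy 2.4.6, pandas 2.3.3 and scipy 1.17.1, and drawn with matplotlib 3.10.9. The number of arrays limits the precision.

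All 10 genes were named, by their brightest probe, with the 2 most alike genes of each. List genes were to be named at an adjusted p of at most 0.05, up to 5 per list and comparison. None reached it, and those named were chosen after their values were seen. Some genes that these rules or the lists name are not reported here. The genes and lists were chosen with earlier results of these data known. All 16 probes matched RefSeq accessions (GRCm38.p6), used for names and promoter windows, while the array's own annotation is on mm9. Alternatives were normexp background, quantile and median scaling, outlier spots kept, other filters, array weights, other probes, slide as a random block, pairs of 1 scan date, a t-test on differences paired by time point, a linear trend, and leaving out doubtful arrays and each time point. Leaving out saturated spots was added after seeing the data.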

Additional observations from a re-analysis of the deposited data

Results flagged for a closer look

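In 3 of the 70 sets of arrays checked (each gene on the early or the late arrays of a diet), 1 array lay far from the rest of its set. Chance alone flags about 1 in 20 such sets. Among the late HFC arrays, Abhd5 was 0.86 at week 3 and between −2.19 and −1.25 on the other 5. Among the early HFC arrays, G0s2 was 0.88 at week 0 and between 4.00 and 4.52 at days 6, 10 and 14. Plin1 on the same week 0 array was 3.75, against 5.87 to 5.94 on the other 3, all saturated and therefore lower bounds.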

How the results depend on the processing

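Under the alternatives run for each comparison (the time block, scan date pairs and t-test alternatives were not run for the KAL-1 diets), 0 of the 10 genes passed the adjusted p in any comparison but 1. With array weights, 5 genes passed in HFC late against early, the exception, and 7902 of all probes were called instead of 0. Leaving out week 0 gave 775 probes there, median scaling 40, and quantile scaling, leaving out week 3, and week 0 as the only early array 1 each. With week 0 as the only early array, 9 of 10 genes were higher late by value in LFC, where 2 were with all early arrays (Abhd5 0.19, Lipe 0.38, Plin1 0.34, G0s2 1.06), and 3 of 10 in HFC, where 2 were (G0s2 turned to 0.82), with the lone array assumed to vary like the others. In LFC late against early, 145 probes were called, 332 with array weights, 212 without week 3, 79 with median scaling, outlier spots kept or the strictest filter, and 0 with normexp background, a linear trend or week 0 as the only early array. Leaving out 1 time point gave 51 to 212. For the change of the HFC minus LFC difference, 2 probes were called with array weights or without LFC week 3 and HFC week 12, and 0 otherwise. The cause was not tested. Median scaling moved the median of all probes to 0.32, 0.23 and 0.33 for HF5, HF20 and HF75 against HFC. Saturated spots bound the upper end of 7 of the 10 genes, and 1 array per diet and time point limits all comparisons. Comparisons between diets were paired by time point, and leaving the time block out of HFC against LFC also called 0 genes.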
